A study of Mus musculus with 16 samples.

Results

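Trimethylation of histone H3 at lysine 27 (H3K27me3) was mapped by chromatin immunoprecipitation and sequencing in blood-forming stem cells of mice aged 4 months (young) and 24 months (old). The 6 libraries described here are all those of the series whose title begins with this mark, 3 young and 3 old of 16 libraries in all. Both ages were C57BL/6 mice with no other genotype or treatment named in the labels. The cells were bone marrow stem cells gated as SP-KSL-CD150+: cells that pump out a dye (side population), lack lineage markers and carry Kit, Sca-1 and CD150, a sort meant for stem cells with lasting repopulating ability. The same Millipore antibody was used at both ages. The labels describe every sample as a technical replicate, give a number for the biological replicate behind it and do not say how many mice were pooled. P-values therefore measure only how these samples vary, and part of that variation may be technical. The libraries are called young 1, 2 and 3 and old 1, 2 and 3 after the replicate numbers. Their titles carry a second number that the labels do not explain: 16, 18 and 20 for young 1, 2 and 3, and 17, 18 and 20 for old 1, 2 and 3. The labelled cell type could not be checked against marker genes, because the island lists carry no gene names and gene positions of their genome build, mm9, were not used here.

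H3K27me3 is written by the EZH1 or EZH2 subunit of Polycomb repressive complex 2 and read by CBX proteins of Polycomb repressive complex 1. It marks genes that are held silent, above all developmental regulators such as the Hox genes, and it spreads along chromatin, so it often forms wide domains rather than sharp peaks. In blood-forming stem cells it is known for keeping lineage and developmental programmes off while leaving them open to later use, often at promoters that also carry H3K4me3, the mark of active or poised promoters. H3K36me3, which covers transcribed gene bodies, is known to hinder Polycomb repressive complex 2. The deposited values were islands, stretches of a grid of 200 bp windows in which the mark was called, each with a score. Islands come from bulk sorted cells, so a mark present in fewer cells and a weaker mark in every cell cannot be told apart.

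On the autosomes the lists held 17618 to 46832 islands that covered 122 to 178 Mb. Young 1 stood apart from the other 5 lists in where its islands lay, though not in their number. It held 46570 islands over 167 Mb, but only 3.38 to 5.35% of that length was shared with any other list, whereas the other 5 lists shared 39.9 to 63.5% of their length with each other. Of its islands, 82.4% touched no island of any other library. Its share of each chromosome under islands ran opposite to the rest: across the 19 autosomes Spearman's rho with the other lists was -0.65 to -0.62, against 0.99 to 1.00 among those 5, a description over chromosomes that share their base composition between libraries. Results are therefore given with and without young 1. Read depth was not given in the sources used here, so differences in depth between libraries could not be measured.

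The first comparison asked whether islands were wider or narrower in old stem cells. No width class differed between the ages beyond the spread between libraries; the widest islands were found in the libraries with title number 18 at both ages. Median island width was 3200 bp in young 1, 5000 in young 2 and 3000 in young 3, and 3000 bp in old 1, 6800 in old 2 and 2600 in old 3. Young 2 and old 2, which both carry title number 18, held 18612 and 17618 islands, while the others held 38375 to 46832. Both had wide islands and the ages overlapped.

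Islands of at least 20 kb made up 0.12% of covered length in young 1, 14.8% in young 2, 6.74% in young 3, 7.19% in old 1, 24.3% in old 2 and 7.53% in old 3. The mean was 7.22% ± 7.35 (SD, n = 3) in young and 13.0% ± 9.76 (SD, n = 3) in old, a difference of 5.78 percentage points (two-sided exact permutation test, p = 0.5; adjusted p = 1.0 over the 10 list-level results). Old 2 alone lay above all young lists. Without young 1 the difference was 2.23 points (exact permutation p = 0.8), and without old 2 it was 0.15 points. Within title number 18 old was 9.48 points higher and within title number 20 it was 0.79 points higher, with 1 library per age and no test. With 3 libraries against 3, or 2 against 3, the smallest p this test can give is 0.1, so none of the list-level tests could reach 0.05.

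The number of islands of at least 50 kb was 0 in young 1, 33 in young 2, 26 in young 3, 19 in old 1, 112 in old 2 and 31 in old 3. Old 2 was above every other list, old 3 lay between young 2 and young 3, and old 1 lay below both. At the other end of the scale, islands under 2 kb made up 15.8, 8.61 and 25.2% of the young lists and 20.8, 1.48 and 30.0% of the old lists. Their share was 0.88 points higher in old (exact permutation p = 1.0) and 0.53 points higher without young 1. That direction is not stable: the difference, old minus young, was -7.13 points within title number 18 and 4.79 points within title number 20. Most islands of every list except old 2 and young 2 were 2 to under 5 kb wide, namely 64.7% in young 1, 52.4% in young 3, 56.0% in old 1 and 51.4% in old 3, against 40.5% in young 2 and 28.8% in old 2. In old 2 the class of 5 to under 10 kb was the fullest, with 41.7% of islands.

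**Figure D1:**
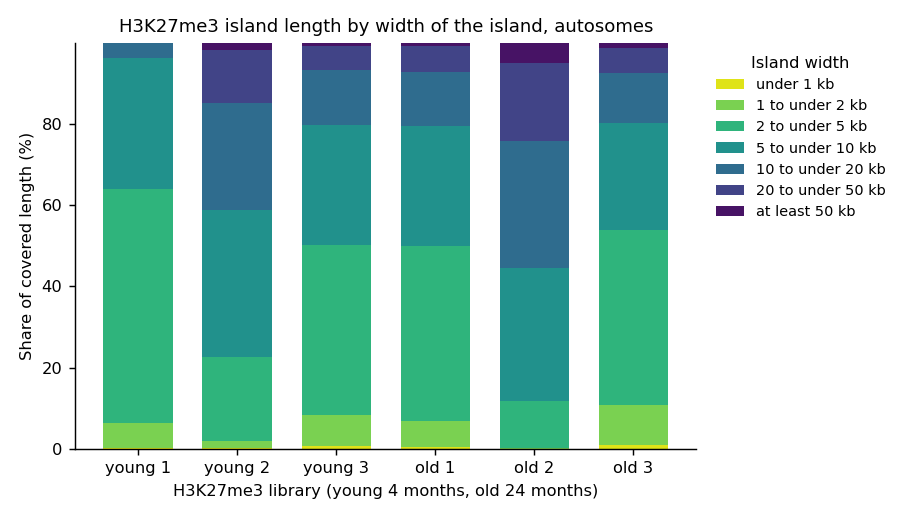
Share of the covered length of each H3K27me3 list (vertical axis, %) by width class of its islands (colours), 1 bar per library, autosomes. Young 2 and old 2 have the largest shares in wide islands, 14.8% and 24.3% at 20 kb or more, and young 1 has 0.12%.

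Wide islands were the ones that different libraries shared. The lists of young 2, young 3 and old 1 to 3 were compared with each other, an island counting as found when it shared 1 bp or more with an island of the other list. Of islands of 20 to under 50 kb, 98.8% in young 2, 99.2% in young 3, 99.1% in old 1, 95.5% in old 2 and 99.7% in old 3 were found in all 4 other lists. At 5 to under 10 kb the share was 53.8, 44.4, 50.8, 36.9 and 50.7% in the same order, and at 1 to under 2 kb it was 13.9, 5.27, 6.82, 14.9 and 5.10%. The drop with width was seen at both ages, and wide islands touch others more easily by their length alone. Requiring that at least 50% of the island be covered, the shares at 20 to under 50 kb were 83.0, 93.1, 96.0, 63.4 and 94.9%. Old 2, with the widest islands, was the lowest.

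Of all islands, 19.1 to 43.6% were found in every other list of these 5. Between 9.35 and 34.8% were found in none of the 4. Both ranges run between a library with title number 18 at one end and a library with many narrow islands at the other. In young 1 the class of 20 to under 50 kb held 9 islands, and 22.2% of them were found in all 5 others.

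**Figure D2:**
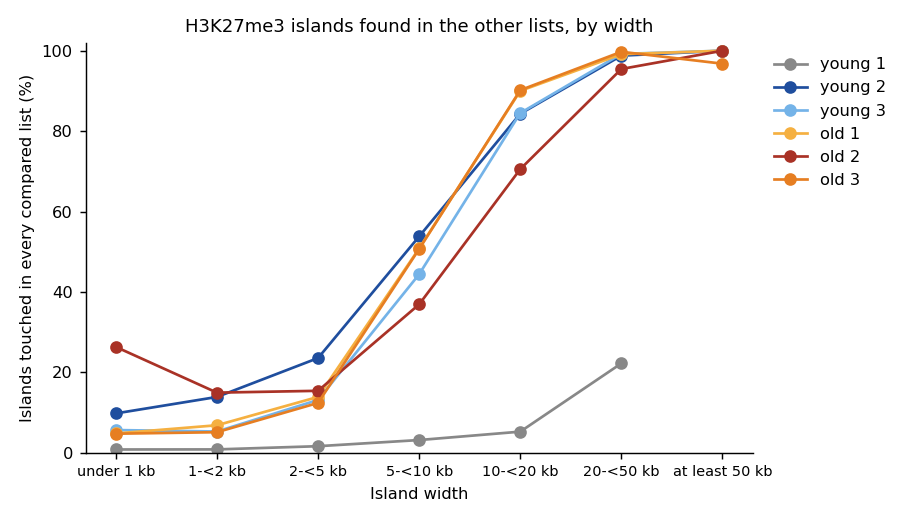
Share of islands (vertical axis, %) touched by at least 1 bp in every other list compared, by island width (horizontal axis); young 1 is set against the 5 other lists, and each of those against the 4 others without young 1. In the 5 lists the share goes from 5.10 to 14.9% at 1 to under 2 kb to 95.5 to 99.7% at 20 to under 50 kb, while young 1 stays at or below 22.2%.

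The second comparison asked whether islands lay closer together at one age. Islands with a neighbour within 5 kb made up 53.1% of young 1, 47.0% of young 2 and 54.9% of young 3, and 45.5% of old 1, 44.3% of old 2 and 49.8% of old 3. The mean was 51.7% ± 4.15 (SD, n = 3) in young and 46.5% ± 2.89 (SD, n = 3) in old, a difference of -5.15 points with overlap between the ages (exact permutation p = 0.2; adjusted p = 1.0). Without young 1 the difference, old minus young, was -4.44 points (exact permutation p = 0.3). It was -2.72 points within title number 18 and -5.15 within title number 20, but when each list was cut to its 17618 highest scoring islands old was 0.58 points higher. When islands were joined into clusters across gaps of up to 10 kb, the clusters held 2.08, 1.71 and 2.05 islands on average in young and 1.73, 1.62 and 1.86 in old. This was a difference of -0.16 on the log2 scale (exact permutation p = 0.3), or -0.11 without young 1.

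The gaps inside wide domains decided how many of them a list showed. Without bridging any gap, the lists of young 1, 2 and 3 showed 9, 603 and 405 domains of 20 kb or more and those of old 1, 2 and 3 showed 366, 1212 and 404. With gaps of up to 2 kb bridged, the numbers were 303, 1174 and 1255 in young and 899, 1735 and 1028 in old. In proportion the 4 lists with narrow islands gained most, and young 3 then exceeded young 2. The geometric mean was 1.53 times higher in old with all 6 libraries, a log2 difference of 0.61 (exact permutation p = 0.6), but without young 1 it was -0.05 (exact permutation p = 1.0). The direction of this count therefore rests on young 1. Within title number 18 the log2 difference was 0.56 and within title number 20 it was -0.29. At gaps of up to 10 kb, young 1 had the most domains, 3871, against 1834 to 3107 in the other lists.

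**Figure D3:**
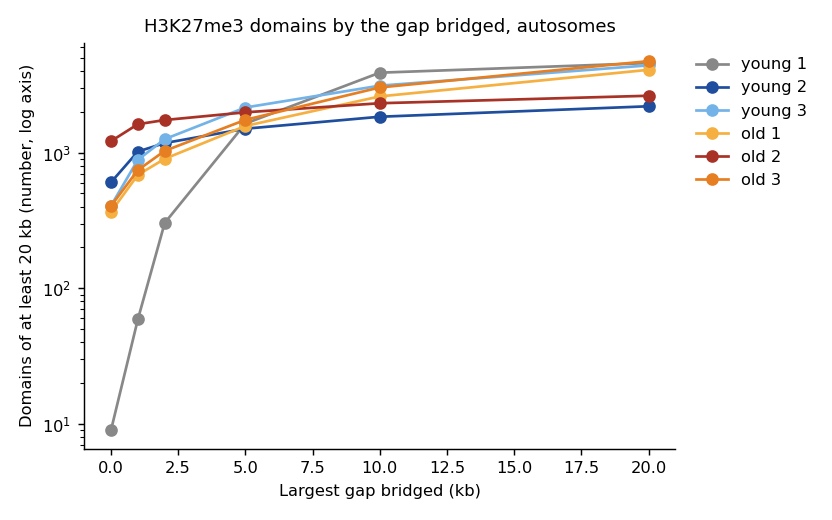
Number of H3K27me3 domains of at least 20 kb (vertical axis, log scale) against the largest gap bridged between islands (horizontal axis, kb), 1 line per library. Young 1 goes from 9 domains with no bridging to 3871 at 10 kb; among the other lists old 2 is highest up to 2 kb, and the 2 ages interleave at every gap.

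At the scale of whole chromosomes the 5 lists without young 1 were nearly alike. Chromosome 11 had the largest share under islands, 8.96 to 11.4% in these 5 lists, followed in the mean by chromosomes 7, 9 and 5. Chromosomes 16 and 3 had the smallest, 2.16 to 4.16% and 2.11 to 4.25%. In young 1 these ends were reversed, with 9.80% of chromosome 16 and 9.39% of chromosome 3 under islands but 3.79% of chromosome 11. Within chromosomes, the tenth of 1 Mb bins with most coverage held 45.7, 49.4 and 38.4% of covered length in young 1, 2 and 3 and 37.1, 45.3 and 36.3% in old 1, 2 and 3. The old mean minus the young mean was -4.94 points (exact permutation p = 0.2; adjusted p = 1.0), and -4.32 points without young 1. In both ages the library with title number 18 had the highest share.

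Covered length was also compared in fixed bins of 50 kb, on the scale of log2(bp + 200); it still depends on the gaps of under 800 bp that every list had already filled. Over the 26275 bins covered in at least 2 of 6 libraries, limma called 0 bins at an adjusted p under 0.05, or 0% (smallest adjusted p = 0.74). At an unadjusted p under 0.05 there were 833 of the 26275 bins, of which 649 were higher in old. A share of 0.05 would reach that level if nothing differed. With each library centred on its median, 928 bins reached that level and only 22 were higher in old. The median bin moved from 0.47 to -0.92 on the log2 scale, so this split follows the scaling. In simulated data with the spread of these libraries, limma found 0 of 100 edge shifts of 5 kb and 0 of 100 of 10 kb. For bins it found 0 of 100 changes of 1 and 0 of 100 of 3 on the log2 scale, so the lack of calls does not show that bins were alike. Without young 1, 0 of 21792 bins were called, with 1967 at an unadjusted p under 0.05 and 1187 of them higher in old.

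Without young 1, all 3 old libraries covered more of the bin than both young ones in 2541 bins (11.7%), and less in 2044 bins (9.38%). A random order of the 2 young and 3 old libraries would give a share of about 0.1 in each direction. Of the 21792 bins compared, 593 of the first set had no coverage in either young library, and 410 of the second had none in any old library. Bins entered when at least 2 of these 5 libraries covered them, so these bins entered through the libraries of a single age. The conditions also differ, with 2 young and 3 old libraries, and the counts are a description. The 5 bins with the largest gain and the 5 with the largest loss among the bins without overlap show how far single regions can stand apart. In chr15:88000001-88050000, 800 and 4000 bp were covered in young 2 and 3 and 24200, 40200 and 33200 bp in old 1, 2 and 3. In chr9:30400001-30450000 the values were 1800 and 1600 bp against 21400, 38200 and 34800 bp. Every old library there covered at least 21400 bp and no young one more than 4000 bp; young 1 covered 0 bp in both. The other bins of this kind were chr5:128250001-128300000, chr4:127400001-127450000 and chr13:73300001-73350000, with old means of 29667 to 41000 bp and young means of 2700 to 14200 bp.

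Among bins with less coverage in old, chr7:147500001-147550000 had 35600 and 39400 bp in young 2 and 3 and 8800, 0 and 1800 bp in old 1, 2 and 3. The bin chr7:147400001-147450000, on the same chromosome, had 38400 and 37000 bp in young and 5600, 1000 and 10200 bp in old. In both bins every old library lay below both young ones. Young 1 had 2400 and 0 bp there, but it also covered at most 3400 bp in the bins named for more coverage in old. Its low values therefore side with neither age. The other 3 bins, chr15:74050001-74100000, chr5:126050001-126100000 and chr7:138400001-138450000, had young means of 29400 to 41100 bp and old means of 1467 to 10067 bp, and 0 bp in young 1. Since these bins were picked for the size of their difference and limma called none of the bins, their values are a description.

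Domains common to both ages were then defined so that edges and ranks could be compared in the same places. A common domain was a stretch of at least 10 kb under islands of at least 3 of the 5 libraries without young 1, joined across gaps of up to 2 kb and touched by all 5. The 3 old libraries could thus define a domain or an edge on their own, and the 2 young ones could not, which treats the ages unequally where they differ. There were 2910, with a total length of 69.6 Mb and a median of 16800 bp; 215 were at least 50 kb and 51 at least 100 kb long. They held 46.6 and 31.5% of the covered length of young 2 and 3 and 34.0, 39.9 and 32.1% of old 1, 2 and 3. Young 1 touched 514 of them (17.7%) and covered 4.43% of their length, and 1.84% of its own covered length lay in them.

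The longest common domain was chr19:44658201-44973600. Of its 315400 bp, 295200 and 294400 lay under islands in young 2 and 3, and 290000, 308600 and 297400 in old 1, 2 and 3. The second, chr15:102683801-102982400, lies at the Hoxc cluster, which encodes body-plan transcription factors that Polycomb keeps silent in many tissues; this placement is background knowledge and was not read from an annotation. It had 284800 and 279600 bp covered in young 2 and 3 and 273800, 293400 and 275400 bp in old 1, 2 and 3. Young 1, which had little or nothing in most long domains, covered 57000 bp here, and its best island there stood at percentile 99.9 of its list. The ages overlapped in both domains.

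The domain chr5:35579601-35852400 had 258200 and 245400 bp covered in young and 236800, 270800 and 252000 bp in old. The other 5 of the 8 longest were chr4:130537601-130775800, chr4:139734001-139959400, chr4:124892601-125087400, chr11:84427801-84613800 and chr7:119769601-119951400. In chr7:119769601-119951400 the ages did not overlap: 146200 and 149000 bp were covered in young 2 and 3 and 160800, 174400 and 166000 bp in old 1, 2 and 3. In chr4:139734001-139959400 they did not overlap either, with 190600 and 184800 bp in young and 200200, 221600 and 192600 bp in old. The other 3 overlapped. A random order of the libraries would give a share of about 0.1 in each direction, and overlap in covered length was not counted over all common domains. The 3 old libraries could also set the bounds of a domain on their own, which favours more cover in old. Young 1 had no island in 4 of these 5 domains and 2400 bp in the domain on chromosome 7.

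Libraries differed in the number of islands called inside the same long domain. A gap between islands is a stretch that was not called, and whether the mark was absent there was not tested. The lists also differed in score: the median score per kb was 10 in young 2 and 10.5 in old 2, against 18.9 to 19.2 in the other lists. The domain at Hoxc was called as 9 and 16 islands in young 2 and 3 and as 14, 3 and 18 islands in old 1, 2 and 3. The longest domain was called as 18 and 11 islands in young and 21, 7 and 14 in old. Old 2 had the fewest islands in both. Over all common domains, 43.1 and 22.1% of them were touched by a single island in young 2 and 3 and 29.3, 55.8 and 25.9% in old 1, 2 and 3. The share of their bases under islands was 81.9 and 80.5% in young and 76.2, 91.2 and 78.2% in old. The old mean of 81.9% ± 8.14 (SD, n = 3) was 0.68 points above the young mean of 81.2% ± 0.97 (SD, n = 2; exact permutation p = 1.0), and without old 2 the difference was -3.99 points. Within title number 18 the difference was 9.32 points and within title number 20 it was -2.30.

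Common domains lay in groups. The median gap between neighbours was 85.2 kb, against a mean of 826 kb if they were spread evenly over the autosomes, and 59.7% had a neighbour within 50 kb. Joining domains across gaps of up to 50 kb gave 1681 groups, 92 of them with at least 5 domains. The group with most domains, chosen after its values were seen, was chr4:127248801-128208600 with 21 domains. It had 533 and 482 kb under islands in young 2 and 3 and 571, 782 and 601 kb in old 1, 2 and 3, while young 1 had 14.6 kb. The old libraries were all higher than both young ones here. In 2 of the next 4 groups they were all lower: at chr7:138826601-139391000 young 2 and 3 had 426 and 409 kb and old 1, 2 and 3 had 250, 395 and 282 kb, and at chr11:71211201-71760600 the values were 394 and 397 kb against 288, 355 and 315 kb. In the other 2, on chromosomes 2 and 12, the ages overlapped. Overlap was not counted over all 1681 groups. The 3 old libraries could define domains on their own, which favours a high count of domains where old cover is high. The group on chromosome 4 also holds the bin chr4:127400001-127450000 named above, so its higher cover in old is no separate result.

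Common domains were poor in H3K36me3 and carried H3K4me3 more densely than the autosomes as a whole. H3K36me3 peaks were found in 0.45% of domains in young 4 and in 1.03 to 1.65% in the other 5 H3K36me3 libraries. Their number per Mb of domain was 0.03 to 0.11 times that of the autosomes. H3K4me3 peaks were found in 29.5 and 27.9% of domains in the young libraries of that mark (young 7 and 8) and in 34.6 and 35.4% in the old ones (old 7 and 8). Per Mb they were 2.43, 2.30, 2.84 and 2.69 times as frequent in the domains as on the autosomes. Wider domains held a peak more often: at 50 kb or more the share was 48.8 and 46.5% in young and 59.1 and 57.7% in old, against 26.2, 24.4, 30.1 and 31.2% at 10 to under 20 kb. Longer domains touch a peak more easily by their length alone, and the number of peaks per Mb was not compared between width classes.

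The old share of domains with an H3K4me3 peak was 6.32 points higher than the young share, without overlap (exact permutation p = 0.333, the smallest that 2 against 2 libraries can give). The old lists also held more H3K4me3 peaks, 18080 and 19306 against 15788 and 15730. When each list was cut to its 15730 highest scoring peaks, the shares were 29.4 and 27.9% in young and 27.9 and 27.9% in old, a difference of -0.76 points. The difference was thus in the opposite direction at equal peak numbers, and it came from young 7. The number per Mb relative to the autosomes, given above, allows for the length of each list. It was higher in both old lists than in both young ones and was not tested.

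The third comparison asked whether the edges of domains had moved. Each domain has a left and a right edge, 5820 in all, and the outward shift is how far beyond the common edge the islands of a library reached after bridging gaps of up to 2 kb. The median shift was 0 bp in young 2, young 3, old 1 and old 3 and 600 bp in old 2. The difference of 200 bp between the ages was within the spread of the old libraries (SD 346, n = 3; exact permutation p = 1.0). Edges that ran more than 20 kb further out numbered 184 and 178 in young 2 and 3 and 61, 470 and 68 in old 1, 2 and 3. Old 2 stood alone at the top, and old 1 and old 3 had fewer than both young libraries. Between any 2 libraries the median distance between their edges was 2200 to 3400 bp, and 2.44 to 3.83% of edges lay in the same 200 bp window. Pairs of the same age (2200 to 3200 bp) and pairs of different ages (2400 to 3400 bp) overlapped in this distance.

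Around an edge the mark fell away within 2 kb and then rose again outside. At 2 kb inside, 75.9 and 76.0% of edges were under islands in young 2 and 3 and 69.9, 87.8 and 73.5% in old 1, 2 and 3. At 2 kb outside the values were 18.2, 19.4, 12.5, 33.4 and 14.9%, and at 10 kb outside 31.3, 35.3, 29.4, 38.1 and 31.0%. The dip at 2 kb is built in, since closer islands were joined to the domain. The level at 10 kb was several times the 4.95 to 7.20% of the autosomes under islands in the same lists, and at 1000 kb it was still 10.7 to 13.1%. In young 1, 1.60 to 2.30% of edges were under islands at distances of 5 to 1000 kb outside, below its share of 6.77% over the autosomes.

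H3K36me3 was scarcer inside the edges than outside them. At 10 kb inside an edge, 0.02 to 0.14% of edges lay under H3K36me3 peaks in the 6 libraries of that mark, and at 10 kb outside 0.12, 1.46 and 3.78% in young 4, 5 and 6 and 2.16, 3.14 and 3.25% in old 4, 5 and 6. All of the values outside were still below the share of the autosomes under H3K36me3 in the same list (0.24 to 5.52%). A peak of H3K36me3 began or lay within 10 kb outside in 0.74, 5.77 and 6.72% of edges in young and 4.54, 5.96 and 6.32% in old. The old mean was 1.20 points higher (exact permutation p = 0.8), but without young 4, whose list held 6348 peaks against 39151 to 83905 in the others, the difference was -0.64 points (exact permutation p = 0.6).

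**Figure D4:**
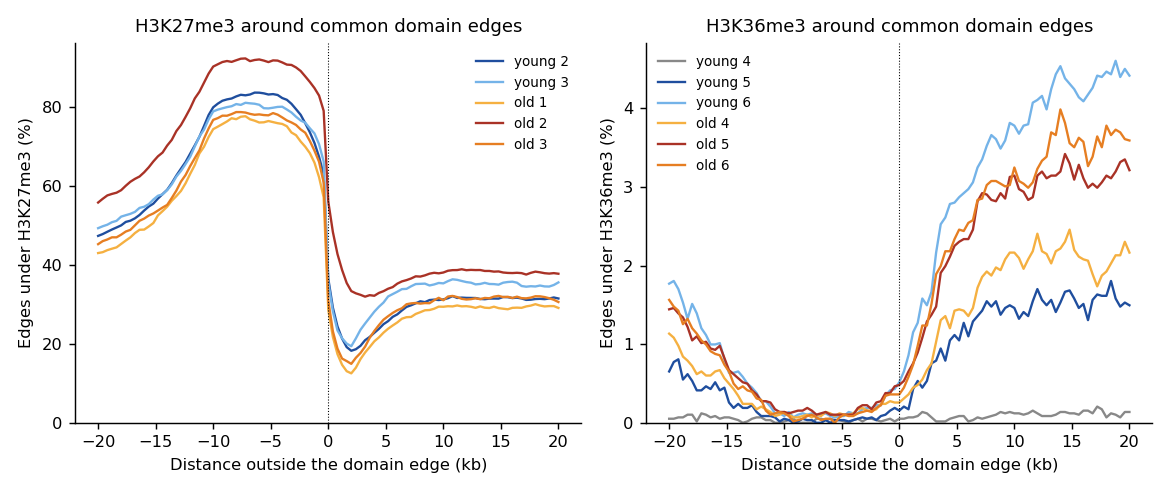
Share of the 5820 common domain edges (vertical axes, %) under H3K27me3 islands (left) and H3K36me3 peaks (right) against the distance outside the edge (kb; negative values lie inside), 1 line per library. H3K27me3 drops at the edge and returns to 29.4 to 38.1% at 10 kb outside; H3K36me3 is at or below 0.14% at 10 kb inside, and the fall of H3K27me3 further inside than 10 kb arises because domains of 10 kb end there.

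For single edges, limma called 3 of 5820 (0.0515%) at an adjusted p under 0.05, all further in in old. An edge shared by the 3 old libraries becomes the common edge wherever both young ones run on, so the definition favours this direction. At the left edge of chr2:179192801-179204000 the shift was 42.4 and 40.4 kb in young 2 and 3 and -0.8, 0 and -1.2 kb in old 1, 2 and 3 (difference -42.07 kb ± 1.4 SE, limma adjusted p = 0.0113). At the right edge of chr5:35579601-35852400, the third longest domain, it was 38.4 and 39.4 kb in young and 0, -0.2 and -1.0 kb in old (limma adjusted p = 0.0113). At the right edge of chr11:113872201-113885200 it was 31.0 and 30.6 kb in young and -3.2, 0 and -3.4 kb in old (limma adjusted p = 0.0471). In all 3 the young islands ran on as 1 joined domain and the old ones did not.

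These shifts did not mean that the stretch was bare in old. Between the mean young and the mean old edge at chr2:179192801-179204000, 42.0 kb in all, 40.0 and 37.4 kb were covered in young 2 and 3 and 27, 34.8 and 25.2 kb in old 1, 2 and 3. At chr5:35579601-35852400 the stretch of 39.2 kb was covered over 37.2 and 36.8 kb in young and 24.4, 29.2 and 24.6 kb in old. Old was lower in both, yet on average 69.0 and 66.5% of the stretches lay under islands in old, cut off from the domain by gaps longer than 2 kb. At chr11:113872201-113885200, of 33.0 kb, 33.0 and 29.4 kb were covered in young and 11.4, 22.2 and 3.2 kb in old. The number of calls depended on the libraries: 39 without young 2, 54 without young 3, all further in in old, 0 without old 1 or without old 2, and 2 without old 3, both further out. With the replicate number as a block limma called 0 edges (smallest adjusted p = 0.81), and with domains defined by at least 4 of 5 libraries it called 1 further out and 1 further in. A p under 0.05 before adjustment was reached by 338 of 5820 edges, of which 143 were further out in old.

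Edges at which the 2 ages did not overlap were found in both directions, and the difference between the counts was not tested. All old libraries reached further out than both young ones at 671 edges (11.5%), by a median of 5.30 kb, and less far at 590 edges (10.1%), with a median difference of -5.98 kb. Both are close to the share of about 0.1 that a random order of the libraries would give in each direction. At the 671 edges the stretch between the mean edges was covered to a median of 76.0% in old and 12.5% in young. At the 590 edges it was covered to a median of 81.0% in young and 21.9% in old. The edges were picked for this order and the cover comes from the same islands. High cover in the age with the outer edge is thus largely built in and is no separate result. In 5.96% of the first and 11.9% of the second, the age with the inner edge still covered at least 50% of the stretch, with the domain broken by a gap before it.

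The 4 largest outward differences with all shifts within 20 kb included the right edge of chr18:21305001-21335200. Its shift was -6.2 and -6.0 kb in young 2 and 3 and 12.6, 11.4 and 12.0 kb in old 1, 2 and 3, which was the narrowest spread of the 4 (difference 18.1 kb ± 1.26 SE, limma adjusted p = 0.07). Over that stretch of 18 kb, 6.0 and 2.2 kb were covered in young and 15.6, 16.6 and 14.4 kb in old. The other 3, the right edge of chr14:12549201-12591000 and the left edges of chr7:103724601-103778000 and chr13:73342201-73369400, differed by 15.9 to 17.8 kb. In these the old libraries covered 78.5 to 84.8% of the stretch on average and the young ones 5.1 to 17.9%. Since the edges were picked for their shifts, this cover is largely built in as well.

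Among the 4 largest inward differences, 2 were the facing edges of neighbouring domains, chr2:163301201-163314600 and chr2:163320801-163333000. Their facing edges were 19.6 and 18.4 kb, and 15.6 and 19.6 kb, further out in young 2 and 3, where the young islands joined the 2 domains into 1. In old 1 and 2 the shifts of the facing edges were -7.2 to -3.6 kb, and in old 3 they were 0. At the left edge of chr6:113828001-113849800 the shift was 16.2 and 15.6 kb in young and 0, -0.8 and -6.4 kb in old. The old libraries covered 2.6, 1.6 and 0 kb of that stretch of 18.4 kb and the young ones 17.4 and 15.2 kb. At the left edge of chr4:139333001-139458400, by contrast, the old libraries covered 13.0, 17.4 and 16 kb of a stretch of 21 kb, close to the 18.2 and 16.2 kb of the young ones.

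The fourth comparison set score ranks side by side. A score percentile is the share of islands in the same list with a lower score, since the unit of the score is not given. In every list the score rose with width (Spearman's rho 0.89 to 0.92 over islands, which are not independent), so ranks partly repeat widths. Islands of at least 20 kb had a median percentile of 99.97 in young 1, 98.2 in young 2 and 99.5 in young 3, and 99.5, 96.2 and 99.5 in old 1, 2 and 3. The difference of the means, old minus young, was -0.84 points (exact permutation p = 0.6), and -0.48 points without young 1. The libraries with title number 18, in which wide islands are common, had the lowest values of the 5 lists.

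The top of the ranking was shared by the 5 lists. Of the 1000 highest scoring islands of each list, 70.8 to 81.3% touched one of the top 1000 of another and at least 98.5% touched some island of it. In young 1 only 2.8 to 3.6% of its top 1000 touched the top 1000 of another list. Common domains held 97.0 and 97.7% of the top 1000 in young 2 and 3 and 96.7, 98.3 and 96.7% in old 1, 2 and 3, but 3.7% in young 1. The domains were wide stretches defined from these 5 lists without young 1, and scores rise with width. High shares in the 5 lists and a low share in young 1 are therefore partly built in. The domain at Hoxc held an island among the 3 highest of each of the 5 lists, with 4250 and 4958 score units in young 2 and 3 and 7155, 8295 and 9503 in old 1, 2 and 3. These are scores of 1 island each, and the islands were 87000 to 269200 bp wide. Per kb they held 25.2 and 57.0 units in young 2 and 3 and 50.2, 30.8 and 55.8 in old 1, 2 and 3, so the ages overlapped. The scores were not tested, since the scale of each list is unknown.

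A few narrow islands scored as high as the widest domains. At chr17:39975201-39989800, the bounds in old 1, an island of 6000 to 14600 bp had the highest score in young 2, young 3, old 1 and old 2, the second highest in old 3 and the fourth highest in young 1. It held 388 to 1025 score units per kb, while the median island of a list held at most 19.2. Islands with over 200 units per kb numbered 16, 10 and 10 in young 1, 2 and 3 and 15, 8 and 14 in old 1, 2 and 3.

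For the 2910 common domains, the percentile of the best island was compared between the ages without young 1. limma called 0 domains (0%) at an adjusted p under 0.05 (smallest adjusted p = 0.07). An unadjusted p under 0.05 was reached by 155 of 2910, of which 118 were higher in old. In simulated ranks with this spread, limma found 21 of 100 changes of 10 percentile points and 43 of 100 changes of 20, so changes of these sizes could be missed. Percentiles of the same domain in 2 libraries had a Spearman's rho of 0.78 for the 2 young libraries, 0.78 to 0.83 among the old and 0.69 to 0.75 across ages, a description over domains that share their widths. The medians over domains were 89.4 and 95.4 in young 2 and 3 and 94.4, 90.3 and 95.5 in old 1, 2 and 3. They were lowest in the 2 libraries with title number 18, which make up 1 of 2 young but only 1 of 3 old libraries.

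All old libraries ranked a domain higher than both young ones in 284 cases (9.76%) and lower in 166 (5.7%). A random order of the libraries would give a share of about 0.1 in each direction. When domains were instead ranked among the common domains alone, which removes the different lengths of the lists, the counts were 395 higher (13.6%) and 415 lower (14.3%). The excess of higher ranks was thus not present on the second scale, but both shares there were above 0.1. On that scale limma again called 0 domains, with 350 of 2910 at an unadjusted p under 0.05 and 159 of them higher in old. On the first scale 155 of 2910 had reached that level. More domains thus separated the ages on the second scale, in both directions, and the cause was not tested.

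The ranks named next are a description, since a domain high in the 3 old libraries could enter through these alone while one high in the young libraries needed an old one too. The domain with the largest rank difference was chr2:74948001-74960400. Its best island stood at percentile 23.6 and 6.55 in young 2 and 3 and at 88.2, 76.2 and 86.7 in old 1, 2 and 3 (limma adjusted p = 0.22). Among the common domains it stood at 1.13 and 0.03 in young and at 26.7, 19.4 and 17.9 in old, so it was one of the lowest ranked common domains in young and still in the lower part in old. For chr11:66312401-66324600 the percentiles were 55.1 and 4.21 in young and 99.3, 88.3 and 91.4 in old, with a wide spread between the young libraries. The other 2, chr4:62747201-62757200 and chr9:30432601-30444600, had young means of 25.7 and 23.9 and old means of 86.4 and 80.7. The last of them lies inside the bin chr9:30400001-30450000 described above, where young 2 and 3 covered 1800 and 1600 bp, so it was a common domain through the old libraries and its low rank in young is no separate result.

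Ranks were lowest in old relative to young at 2 neighbouring domains of chromosome 8. At chr8:96281601-96293000 the percentiles were 85.8 and 83.6 in young 2 and 3 and 56.4, 41.9 and 7.11 in old 1, 2 and 3. At chr8:96264601-96275600 they were 85.8 and 85.1 in young and 31.0, 24.7 and 58.8 in old (limma adjusted p = 0.66). In young 2 the percentile was the same at both. The other 2 were chr1:134568201-134580000, with 83.7 and 94.3 in young and 24.6, 38.4 and 79.9 in old, and chr15:101733001-101743000, with 78.6 and 94.5 in young and 29.6, 43.8 and 66.5 in old. All 8 domains named for their ranks were 10000 to 12400 bp wide, near the lower limit for a common domain, and none passed the test across all domains.

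**Figure D5:**
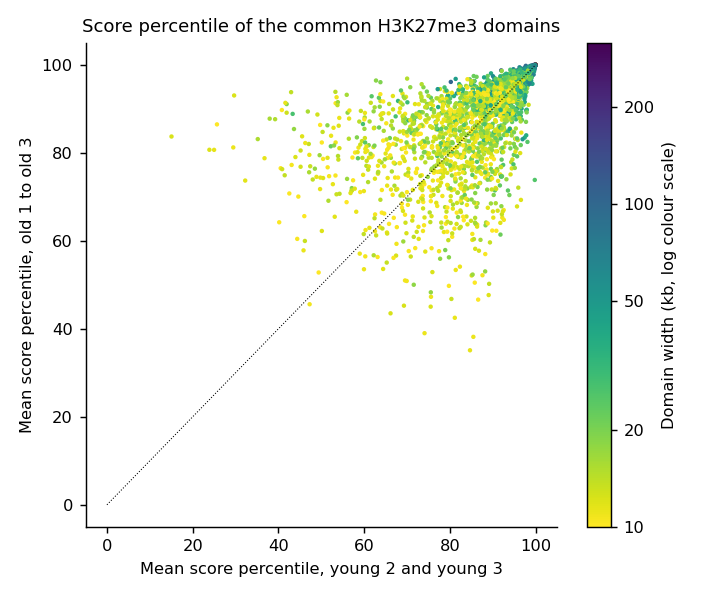
Mean score percentile of each of the 2910 common H3K27me3 domains in young 2 and young 3 (horizontal axis) and in old 1 to old 3 (vertical axis), coloured by domain width (log colour scale); the dotted line marks equal values. Wide domains lie near the top right at both ages, and the points far from the line are narrow domains, such as the one at 15.1 in young and 83.7 in old.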

How the data were processed

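The 6 H3K27me3 lists were SICER-type islands, 1 list per library; positions are on mm9 and the tools were SICER, MACS and CASAVA 1.4, per the submitters' processing notes. For other versions, thresholds, control libraries and depth nothing was given in the sources used here. Each island carried a score as deposited by the authors, whole numbers of no stated unit, used only for ranks and thresholds. Peak positions of the H3K36me3 and H3K4me3 lists were used at the domains. Ends were read as the last base of a 200 bp window, so 1 was added to them. Only autosomes entered, without young 1 in the main comparisons of common domains, their edges and their ranks.

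List-level values were compared by exact two-sided permutation over libraries with Benjamini-Hochberg adjustment over 10 results; bins, edges and ranks by limma 3.58.1 in R 4.3.3, adjusted over all features, with a threshold of 0.05. Python 3.11.15, numpy 2.4.6, pandas 2.3.3 and scipy 1.17.1 did the rest, and limma and the permutation code were tested on simulated data. The regions named were the 8 longest common domains, the 4 edges with the largest outward and the 4 with the largest inward differences within 20 kb, the 4 domains with ranks most higher and the 4 most lower, and the 5 bins with the largest gains and the 5 with the largest losses, the last 3 kinds among those without overlap between the ages. The edges called by limma were added. Members, lists and this rule were chosen with earlier results of these data known. Alternatives changed the libraries, island thresholds, widths, gaps, bins, pseudocount and centring; ranks among the common domains, ranks without very dense islands, values within title numbers for the edge shift and the covered share of domains, the grouping of neighbouring domains, the cover between shifted edges and every comparison of H3K4me3 peaks in domains were added after seeing the data. No gene annotation of mm9 was used, so regions are given by position.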

Additional observations from a re-analysis of the deposited data

Results flagged for a closer look

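Chromosomes outside the autosomes were not part of the comparisons. On chromosome Y, young 1 held 17 islands, old 1 held 3, old 2 held 3 and old 3 held 8, while young 2 had 0 and young 3 had 2. The labels do not give the sex of the mice. Young 1 was also the only H3K27me3 list with islands on chromosome M, the mitochondrial genome, with 3. These counts were singled out because they lie outside the main measurement, and no cause was tested.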

How the results depend on the processing

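Over 14 results and 166 alternatives, 142 kept their sign and their side of the threshold or, for counts, a similar number. Among these, the calls on edges did not keep their direction without old 3 (2, both further out) or with at least 4 of 5 libraries (1 out, 1 in), and the median edge shift of 200 bp became 0 without old 2 and within title number 20. No list-level test passed its threshold under any setting, and the design allows none to. Differences, old minus young, took the other sign as follows. The share of islands under 2 kb was -7.13 points within title number 18 and -0.77 at equal numbers of islands, and ranged from -5.40 to 8.86 with each library left out. The share with a neighbour within 5 kb was 0.58 points at equal numbers of islands. Domains of at least 20 kb differed by -0.29 (log2) within title number 20 and by -0.053 to 0.97 with each library left out, the lowest without young 1. The median percentile of islands of at least 20 kb was 0.0111 points within title number 20 and ranged from -1.41 to 0.27 with each library left out. The covered share of common domains was -2.30 points within title number 20 and ranged from -3.99 to 3.51, the share of edges with H3K36me3 outside from -0.64 to 2.35. The share of domains with an H3K4me3 peak was -0.76 points at equal numbers of peaks. Calls on edges, 3 in all, numbered 0 with young 1 added, 0 with the replicate block, 1 in domains of at least 20 kb and 0 to 54 with each library left out. Score ranks, with 0 calls, gave 2 for domains in at least 4 of 5 libraries and 3 at a stricter score threshold. Same-numbered libraries deviated from their age means over bins with correlations of 0.13, 0.25 and -0.05, so the numbers were not taken to pair them; with the replicate block the covered share differed by 3.51 points and the edge shift by 300 bp, and no other call changed. Each cause was not tested. Depth is unknown and 2 or 3 libraries per age limit the precision.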
